A study of Mus musculus with 7 samples.

Results

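The glutathione peroxidase family of the mouse consists here of 8 genes, Gpx1 to Gpx8, which were taken by symbol from the 55536 genes of the deposited table. The family was selected on the normalized counts of Gpx6, whose difference between the genotypes in this same comparison was among the largest, so the values of Gpx6 are given below as a description, with no test. The other 7 members came in by name. RNA was sequenced with SMART-seq, a full-length chemistry for small cell numbers, from thymus cells sorted for EPCAM and labelled as medullary thymic epithelial cells (mTECs). The Cre-positive group, with the genotype Cre(+) Ikzf1fl/fl Pou2f3-/-, had 3 libraries, numbered 45, 76 and 80 in their labels. The Cre-negative group, with the genotype Cre(-) Ikzf1fl/fl Pou2f3-/-, had 4 libraries, numbered 46, 48, 75 and 77. All 7 libraries therefore share the loxP-flanked alleles of Ikzf1, which encodes the transcription factor Ikaros, and the null alleles of Pou2f3, the factor that tuft cells require. The question put by the comparison is how expression differs with Cre in Pou2f3-null mTECs. The sources used here do not give the Cre driver, the flanked exons, or the ages and sexes of the animals. Whether the numbers mark separate animals is not stated either, so the p-values cover the spread of these libraries, part of which may be technical.

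Glutathione peroxidases reduce hydrogen peroxide or lipid hydroperoxides to water or alcohols, and most of them use the tripeptide glutathione as the electron donor. The catalytic residue is selenocysteine in some members, inserted at a UGA codon that would otherwise end translation, and cysteine in the others. The medulla of the thymus is known for low-level transcription of genes of peripheral tissues, part of it under the regulator Aire, and for mimetic epithelial cells that carry whole programmes of such tissues.

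The codon of the catalytic residue divides the family, so it is shown for all 8 members. Each line gives 33 coding bases on the strand of the gene, 5′ to 3′, with the catalytic codon in capitals, read from GENCODE M21 transcripts on build GRCm38. TGA stands for UGA in the RNA and encodes selenocysteine here.
Gpx1: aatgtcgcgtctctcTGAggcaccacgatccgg
Gpx2: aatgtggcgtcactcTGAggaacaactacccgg
Gpx3: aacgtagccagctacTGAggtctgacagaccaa
Gpx4: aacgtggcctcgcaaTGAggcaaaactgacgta
Gpx5: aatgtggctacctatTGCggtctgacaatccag
Gpx6: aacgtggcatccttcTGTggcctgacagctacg
Gpx7: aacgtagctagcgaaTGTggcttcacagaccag
Gpx8: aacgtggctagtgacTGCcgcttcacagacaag
The first 4 members carry the selenocysteine codon and the last 4 a cysteine codon, so mouse Gpx6 is a cysteine enzyme, whereas the human protein is a selenoprotein. The cysteine codon of Gpx6 is codon 73 of 221 and lies at chr13:21313777-21313779 on the plus strand, in exon 2 of 5. Over the aligned coding sequences Gpx6 was 71.0% identical to Gpx5 and 70.7% identical to Gpx3, and its lowest identity was 55.95%, with Gpx8. The longest run of bases shared exactly by Gpx6 and another member was 35, with Gpx5, and the longest in any pair was 40. Reads within such a run cannot be placed on 1 gene, and the sources used here do not say how the authors' counting treated them.

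Read totals, rebuilt from the deposited normalized counts, ran between 11383465 and 11623062 in the Cre-positive libraries and between 9815958 and 12599078 in the Cre-negative libraries. The mTEC label was checked against 10 marker genes, all of which were read in both groups. Of these, 2 were called higher and 3 lower, where 4.66% of all tested genes were called higher and 9.11% lower. Krt14, a basal keratin gene, had 3896.6 to 5880.5 normalized counts (reads divided by the authors' size factor of the library) in Cre-positive libraries and 1162.3 to 2269.2 in Cre-negative libraries. Cd80 (254.3 to 368.9 in Cre-positive and 942.3 to 1484.4 in Cre-negative libraries) and Cldn4 (187.3 to 261.2 and 501.4 to 850.1 in the same order) were called lower. The calls of Krt5 (higher) and Aire (lower) were lost without 1 of several libraries, at limma adjusted p-values between 0.0511 and 0.133, for Krt5 any but Cre-negative 48 and for Aire Cre-positive 45 and 76 and Cre-negative 75 and 77. Epcam had 5597.9 to 6771.2 in Cre-positive libraries and 3882.7 to 5098.5 in Cre-negative libraries, and Aire had 2689.8 to 3297.9 and 3694.0 to 5435.7 in the same order. Ikzf1 itself had 1310.3 to 1828.6 normalized counts in Cre-positive libraries and 1118.7 to 1219.0 in Cre-negative libraries. A count over the whole gene does not test a deletion of part of it. Cre-negative 48 stood apart in its Y-linked genes, with a level of 11.94, the log2 of their summed normalized counts plus 1. The 3 Cre-positive libraries were at 0 and the other Cre-negative libraries lay between 0.85 and 1.0. On this scale 1.0 is 1 normalized count, so only Cre-negative 48 had a clear Y-linked signal. Library values that moved with genotype were the mitochondrial mRNA share, 3.24% to 3.75% in Cre-positive and 1.80% to 2.02% in Cre-negative libraries, and the genes that reached 10 reads, 17169 to 18014 in Cre-positive and 19417 to 20467 in Cre-negative libraries. The part of these values, and of the shift among the mTEC markers, in the results below was not tested. In bulk RNA, a larger number of expressing cells cannot be told apart from more RNA in each of them.

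Gpx6 (ENSMUSG00000004341), at chr13:21312125-21319624 on the plus strand, encodes a secreted-type enzyme described in mouse mainly from the olfactory epithelium. Gpx6 had 7536.1, 7172.1 and 9522.0 normalized counts in Cre-positive 45, 76 and 80, against 672.1, 391.0, 574.7 and 772.3 in Cre-negative 46, 48, 75 and 77. The lowest Cre-positive library therefore lay far above the highest Cre-negative one, and no library fell between the groups. The means were 8077 ± 1265 normalized counts in Cre-positive libraries (SD, n = 3) and 602.5 ± 162 in Cre-negative libraries (SD, n = 4), a ratio of 13.4. On the log2(normalized count + 1) scale, on which every difference below is Cre-positive minus Cre-negative, the difference was 3.78. Among the other genes called higher, the next larger difference was 3.82, of an unnamed gene model, Gm37876. The next smaller was 3.75, of the regulator of G-protein signalling Rgs13. The size of the Gpx6 difference restates the selection of the family.

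Since no library fell between the groups, any subset of libraries must give a higher Gpx6 with Cre. Only the sizes are therefore described. Within the label numbers 45 to 48 the log2 difference was 3.88, over 1 Cre-positive and 2 Cre-negative libraries, and within the numbers 75 to 80 it was 3.63, over 2 libraries of each group. Without Cre-negative 48, the library with the high Y-linked level, it was 3.58. As RPM of recovered reads, with no size factor, Gpx6 had 628.5 to 789.2 in Cre-positive libraries and 40.4 to 76.1 in Cre-negative libraries.

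**Figure D1:**
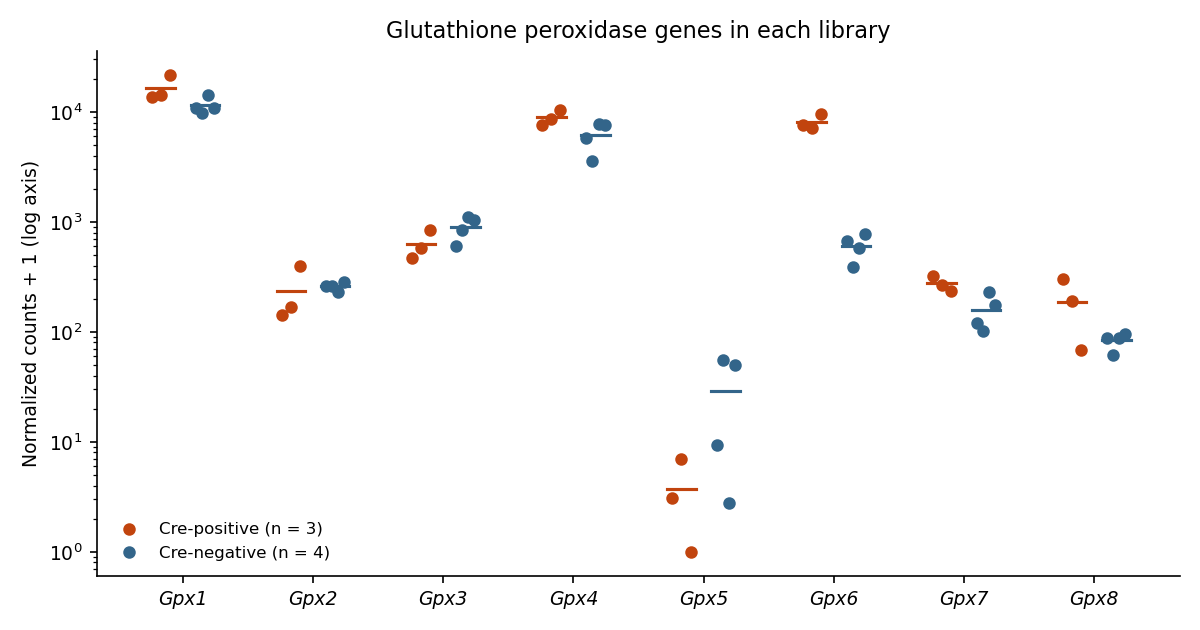
Normalized counts plus 1 (log axis) of the 8 glutathione peroxidase genes, with 1 point per library and a bar at the group mean, Cre-positive (n = 3) left of Cre-negative (n = 4). Gpx6 is the member with the widest gap between groups, 7172.1 to 9522.0 in Cre-positive libraries and 391.0 to 772.3 in Cre-negative libraries.

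All 8 members passed the filter of a mean of at least 5 normalized counts. Of the 7 other members, none was called by limma at an adjusted p under 0.05, where 13.8% of the 22878 genes tested were called, 4.66% higher and 9.11% lower in Cre-positive libraries. At an unadjusted p under 0.05 there were 4 of these 7, where the share over all genes was 28.4%. DESeq2 on recovered reads called 1 of 7, Gpx5, where it called 18.5% of all genes. edgeR and limma-voom called none of the 6 they tested at an adjusted p under 0.05, where they called 13.7% and 12.4% of all genes. Since the family was chosen through this same comparison, no support is read from these counts. The median log2 difference over all tested genes was -0.10, and -0.30 when libraries were scaled by their totals instead of the size factors.

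Gpx1 (chr9:108338903-108340343) encodes the main cytosolic and mitochondrial selenoenzyme for hydrogen peroxide. It had 13569.5, 14301.2 and 21814.5 normalized counts in Cre-positive libraries and 10932.7, 9846.0, 14300.1 and 10946.8 in Cre-negative libraries. The groups overlapped, since Cre-negative 75 lay above Cre-positive 45, and Cre-positive 80 was the highest library. Gpx1 differed by 0.51 ± 0.19 (SE) on the log2 scale, with a 95% interval of 0.10 to 0.91 and a limma adjusted p of 0.0953. Without Cre-positive 80 it was 0.29 with a limma adjusted p of 0.338, and with library-total scaling it was 0.30.

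Gpx2 (chr12:76792333-76795554, minus strand) is the selenoenzyme known from gut epithelium. Its values were 141.1, 166.2 and 396.5 normalized counts in Cre-positive libraries and 259.8, 259.1, 227.9 and 284.3 in Cre-negative libraries. The Cre-negative libraries were close to each other, and the Cre-positive libraries lay on both sides of them. The log2 difference was -0.29 ± 0.33 (SE), with a 95% interval of -1.01 to 0.43 and a limma adjusted p of 0.618. Without Cre-positive 80 the difference was -0.74 with a limma adjusted p of 0.107, without Cre-positive 76 it was -0.12, and without Cre-positive 45 it was -0.0010 with a limma adjusted p of 0.999. It was -0.49 with library-total scaling and -0.14 by edgeR and DESeq2. Fntb, a farnesyltransferase subunit gene annotated over Gpx2 on the opposite strand, averaged 122.1 normalized counts in Cre-positive and 293.4 in Cre-negative libraries, and the sources used here do not say whether the counting used strand.

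Gpx4 (chr10:80047166-80056439) encodes the selenoenzyme that reduces phospholipid hydroperoxides in membranes and limits ferroptosis. It had 7543.4, 8693.3 and 10482.2 normalized counts in Cre-positive libraries and 5756.3, 3580.5, 7828.4 and 7629.0 in Cre-negative libraries. Cre-positive 45 lay just below the highest pair of Cre-negative libraries, so the groups overlapped. The log2 difference was 0.58 ± 0.24 (SE), with a 95% interval of 0.05 to 1.10 and a limma adjusted p of 0.136. Without Cre-negative 48, the lowest library, it was 0.33, with library-total scaling 0.37 and with a term for the Y-linked level 0.25.

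Gpx3 (chr11:54902453-54910377) encodes the secreted selenoenzyme of plasma. It had 468.1, 576.8 and 840.8 normalized counts in Cre-positive libraries and 599.2, 834.3, 1100.8 and 1049.4 in Cre-negative libraries. The groups overlapped, because Cre-positive 80 exceeded both Cre-negative 46 and 48. Its log2 difference was -0.51 ± 0.26 (SE), with a 95% interval of -1.07 to 0.04 and a limma adjusted p of 0.209. Without Cre-positive 45 the difference was -0.32 with a limma adjusted p of 0.522. Without Cre-positive 80 it was -0.75 with a limma adjusted p of 0.0927. It was -0.72 with library-total scaling (limma adjusted p 0.0804) and -0.61 with a term for the label number range (limma adjusted p 0.0603).

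Gpx5 (chr13:21286429-21292731, minus strand) is the genomic neighbour of Gpx6 and encodes an enzyme secreted by the mouse epididymis. It had 2, 6 and 0 reads in Cre-positive 45, 76 and 80, or 2.1, 6.0 and 0.0 normalized counts, against 10, 55, 2 and 47 reads in Cre-negative libraries 46, 48, 75 and 77, or 8.4, 54.2, 1.8 and 48.6 normalized counts. The 0 in Cre-positive 80 allows up to 3.11 normalized counts (3 reads, counting error only). The gene passed the filter on low values through Cre-negative 48 and 77, and the groups overlapped because Cre-negative 75 was as low as Cre-positive 45. The log2 difference was -2.55 ± 1.16 (SE), with a 95% interval of -5.07 to -0.04 and a limma adjusted p of 0.170. DESeq2 on recovered reads gave -3.38 with an adjusted p of 0.0343, and in the authors' deposited table, turned to the same direction, the log2 fold change was -3.38 with an adjusted p of 0.0304, where that table puts 21.8% of its genes under 0.05. Without Cre-negative 48 the limma value was -1.97, and without Cre-negative 75 it was -3.40 with an adjusted p of 0.0596.

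Gpx7 (chr4:108400390-108406961, minus strand) encodes a cysteine peroxidase of the endoplasmic reticulum that passes oxidation on to protein disulfide isomerases. Its values were 323.9, 266.4 and 235.6 normalized counts in Cre-positive libraries and 119.8, 100.5, 228.8 and 174.7 in Cre-negative libraries. All Cre-positive libraries lay above all Cre-negative libraries, with Cre-positive 80 and Cre-negative 75 nearly equal, where 25.3% of all tested genes had groups apart in either direction and 10.8% in this one. For Gpx7 the log2 difference was 0.88 ± 0.32 (SE), with a 95% interval of 0.19 to 1.56 and a limma adjusted p of 0.0866. Without Cre-negative 75 it was 1.08 with a limma adjusted p of 0.0422. The difference was 1.55 within the label numbers 45 to 48 and 0.32 within 75 to 80.

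Gpx8 (chr13:113042759-113046386, minus strand) encodes a membrane-bound cysteine peroxidase of the same compartment. It had 303.0, 188.3 and 67.5 normalized counts in Cre-positive libraries and 87.2, 61.1, 86.5 and 95.1 in Cre-negative libraries. Cre-positive 45 and 76 were high and Cre-positive 80 lay within the Cre-negative range, so the groups overlapped. The log2 difference was 0.94 ± 0.46 (SE), with a 95% interval of -0.05 to 1.93 and a limma adjusted p of 0.198. Without Cre-positive 80 it was 1.54 with a limma adjusted p of 0.0186, and without Cre-positive 45 it was 0.47. Within the label numbers 45 to 48 it was 2.04, and within 75 to 80 it was 0.31. In the authors' deposited table the adjusted p was 0.0502. Cdc20b, which is annotated over Gpx8 on the opposite strand, averaged 7.6 normalized counts in Cre-positive and 14.9 in Cre-negative libraries.

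**Figure D2:**
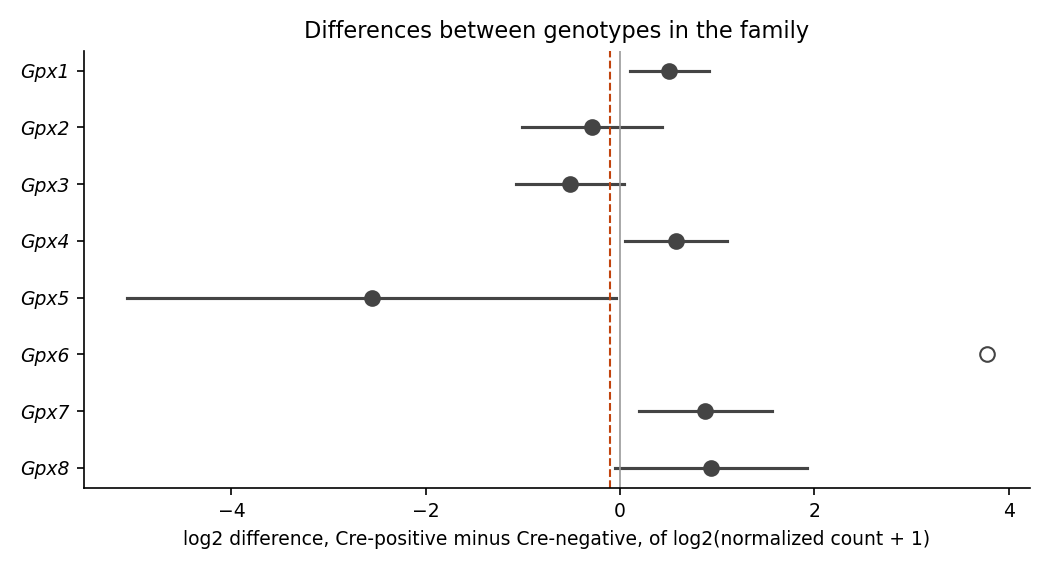
The log2 difference, Cre-positive minus Cre-negative, of each member on the log2(normalized count + 1) scale, with bars for the 95% interval of the limma fit and a dashed line at the median of all tested genes, -0.10. Gpx6 is an open point at 3.78 without an interval because its difference chose the family, and Gpx5 has the widest interval, -5.07 to -0.04.

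The shares of the members in the family restate the difference of Gpx6 that chose the family, and are given as a description. Of the family's normalized counts, Gpx6 made up 25.2%, 22.9% and 21.96% in Cre-positive 45, 76 and 80, against 3.65%, 2.58%, 2.36% and 3.68% in Cre-negative 46, 48, 75 and 77. Gpx1 and Gpx4 together made up 72.8% ± 1.97 in Cre-positive libraries (SD, n = 3) and 89.7% ± 1.22 in Cre-negative libraries (SD, n = 4). That lower share reflects Gpx6 in the total. The log2 differences of their own counts were 0.51 for Gpx1 and 0.58 for Gpx4, neither called. Summed over the 8 genes, the family had 29887 to 43359 normalized counts in Cre-positive libraries and 15127 to 24349 in Cre-negative libraries. Without Gpx6 the sums were 22351 to 33837 in Cre-positive libraries and 14736 to 23774 in Cre-negative libraries, and these ranges overlapped.

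The other cysteine members did not share the level of Gpx6. Gpx5, Gpx7 and Gpx8 summed to 629.0, 460.7 and 303.1 normalized counts in Cre-positive libraries and to 215.4, 215.8, 317.1 and 318.4 in Cre-negative libraries, so the ranges overlapped. The 4 selenocysteine members summed to 21722 to 33534 in Cre-positive libraries and 14520 to 23457 in Cre-negative libraries, again with overlap.

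**Figure D3:**
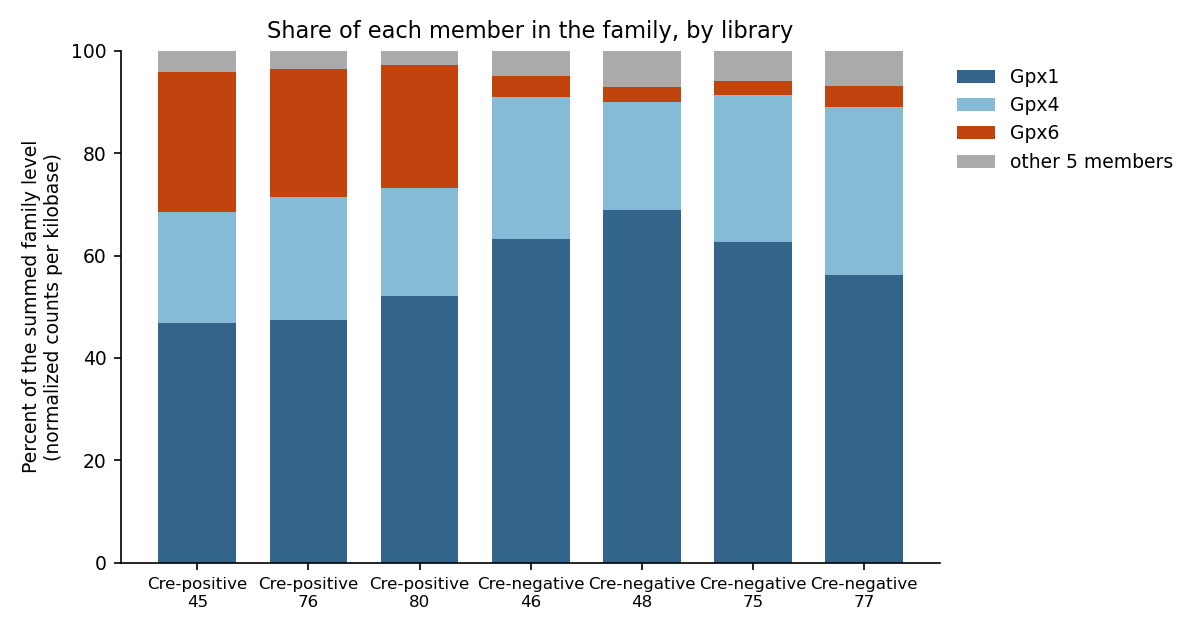
Percent of the summed family level, in normalized counts per kilobase of exon, taken by Gpx1, Gpx4, Gpx6 and the other 5 members together, with 1 stacked bar per library. Gpx6 takes 24.0% to 27.3% in Cre-positive libraries and 2.65% to 4.18% in Cre-negative libraries, which restates the difference that chose the family.

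Levels of different genes were compared per kilobase of exon. In Cre-positive libraries Gpx1 came first, with 11493 ± 3167 normalized counts per kilobase (SD, n = 3), followed by Gpx6 with 5904 ± 925 and Gpx4 with 5166 ± 859. Gpx6 exceeded Gpx4 in 3 of 3 libraries although their ranges overlapped. Gpx3 came next at 346.7 ± 106, and Gpx7, Gpx8 and Gpx2 followed with 213.6 ± 34.8, 177.7 ± 112 and 72.8 ± 43.7, each overlapping its neighbour in the order. Gpx5 was last at 1.61 ± 1.82.

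In Cre-negative libraries the order per kilobase was Gpx1 with 7985 ± 1341 normalized counts per kilobase (SD, n = 4), Gpx4 with 3595 ± 1148, Gpx3 with 494.2 ± 126 and Gpx6 with 440.4 ± 119. The ranges of Gpx3 and Gpx6 overlapped, and Gpx3 was higher in 3 of 4 libraries. Gpx7, Gpx2 and Gpx8 followed with 121.0 ± 44.9, 80.005 ± 7.17 and 78.7 ± 14.1, and neighbours in this order overlapped too. Gpx5 was again last, at 16.9 ± 16.1. Gpx6 thus stood at place 2 of 8 per kilobase of exon in Cre-positive libraries and at place 4 in Cre-negative libraries. With the length of the coding transcript in place of all exon bases, a choice made after the data were seen, Gpx6 was at place 3 in Cre-positive libraries, below Gpx4, and at place 4 in Cre-negative libraries. Gpx2 was at place 5 in both groups by that length, because its exon bases include a retained intron.

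Around the Gpx5 and Gpx6 locus, the other genes within 100 kb that passed the filter on low values were Trim27, a ubiquitin ligase gene, and the zinc finger genes Zscan12 and Zkscan3. None of them was called. Trim27 averaged 290.7 normalized counts in Cre-positive and 259.3 in Cre-negative libraries, a log2 difference of 0.15 with a limma adjusted p of 0.732. Zkscan3 averaged 860.6 in Cre-positive and 812.4 in Cre-negative libraries, a log2 difference of 0.07, and Zscan12 averaged 70.8 and 87.5 in the same order, a log2 difference of -0.14. These small differences changed sign under other settings.

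The genes whose profiles over the 7 libraries were most like that of Gpx6 were ranked by Euclidean distance between centred log2(normalized count + 1) profiles, among 10153 genes averaging 100 normalized counts or more. The 5 nearest were the matrix metalloproteinase gene Mmp9, the surrogate light chain gene Igll1, the sodium pump regulator gene Fxyd2, the RIKEN gene A230065H16Rik and the acute-phase protein gene Crp. Mmp9, at the smallest distance of 0.79, had 5000.1 to 6041.8 normalized counts in Cre-positive libraries and 468.4 to 667.9 in Cre-negative libraries. Fxyd2 had 22890 to 30158 in Cre-positive libraries and 2096.7 to 3300.7 in Cre-negative libraries. Likeness here rests on the gap between groups that chose Gpx6, so it is a description with no test.

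**Figure D4:**
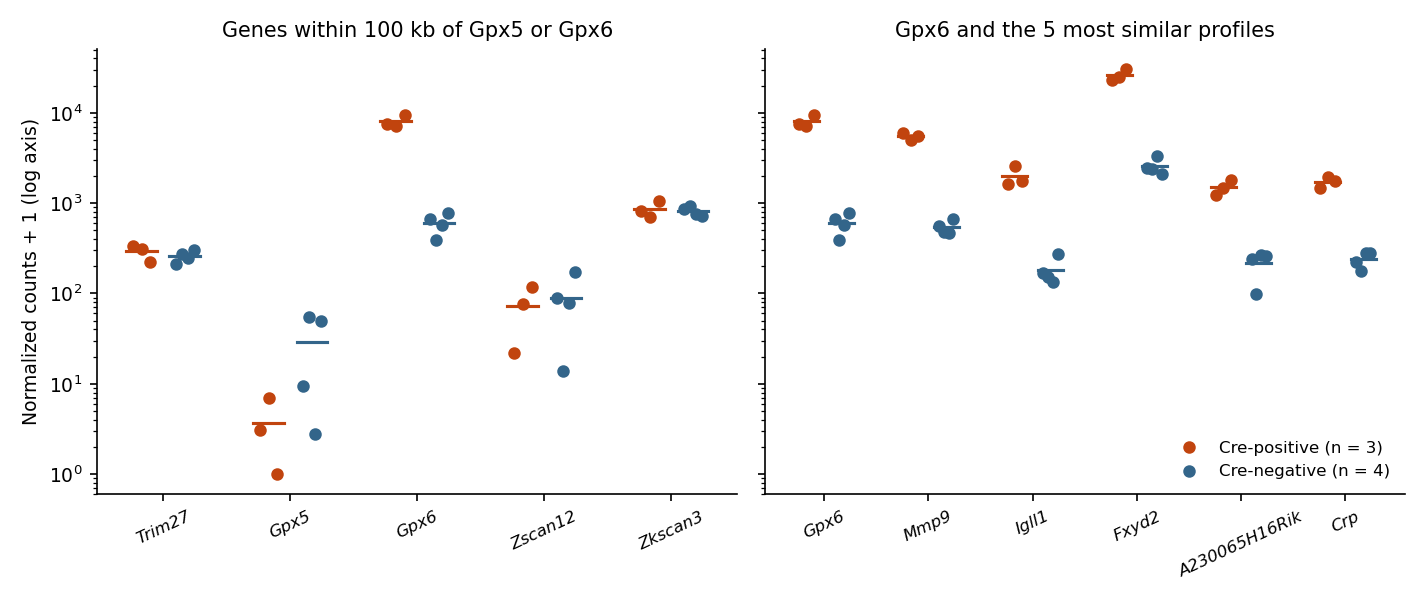
Normalized counts plus 1 (log axis), with 1 point per library and a bar at the group mean, Cre-positive (n = 3) left of Cre-negative (n = 4). At left are genes within 100 kb of Gpx5 or Gpx6, where Trim27, Zscan12 and Zkscan3 overlap between groups, and at right Gpx6 with the 5 most similar profiles, each with its groups apart.

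Gpx6 and Gpx5 are known in mouse from the olfactory epithelium and the epididymis, and marker genes of both tissues were set beside them. Of 10 tested olfactory markers, 1 was called higher and 3 lower, with a median log2 difference of -0.49. Over all tested genes 4.66% were called higher and 9.11% lower, and these shares belong beside every marker list that follows. Cyp2g1, an olfactory cytochrome P450 gene, had 962.4 to 1121.2 normalized counts in Cre-positive libraries and 108.1 to 392.0 in Cre-negative libraries, and rose by 2.46 ± 0.39 (SE) on the log2 scale with a limma adjusted p of 0.00142. Obp2a, an odorant-binding protein gene, had 114.9 to 181.7 in Cre-positive libraries and 756.5 to 1726.0 in Cre-negative libraries, with a log2 difference of -2.97 ± 0.28 (SE) and a limma adjusted p of 4.81e-05. Obp1a and Obp1b were at 0 in every Cre-positive library and had 21.7 to 86.5 and 7.9 to 60.3 normalized counts in Cre-negative libraries. Both passed the filter on low values through the Cre-negative libraries alone. Ugt2a1 was at 0 in all 7 libraries. The summed olfactory markers ran between 3774 and 3957 in Cre-positive libraries and between 2741 and 5330 in Cre-negative libraries. Most of the Cre-positive sum is Cyp2a5, another cytochrome P450 gene, which was not called. It had 2111.0 to 2179.9 in Cre-positive libraries and 510.8 to 3473.1 in Cre-negative libraries.

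Of 9 tested epididymis markers, 5 were called lower and none higher, where 9.11% of all tested genes were called lower. Their median log2 difference was -3.07. Lcn5, Lcn9, Rnase10 and Cst11 averaged under 5 normalized counts in Cre-positive libraries and passed the filter through the Cre-negative ones. Cst11 is also among the genes called lower. No support for Gpx5 is therefore read from the count or from the median. The lower call of the lipocalin gene Lcn10 was lost without any 1 of Cre-positive 45 and 76 and Cre-negative 48, 75 and 77. Its limma adjusted p was then between 0.0583 and 0.0829. The call of Crisp1, also lower, was lost without Cre-negative 46, at a limma adjusted p of 0.0651. The epididymis markers summed to 238.3 to 320.7 normalized counts in Cre-positive libraries and 1189.9 to 1736.7 in Cre-negative libraries. Lcn8, a lipocalin gene, had 9.0 to 56.4 normalized counts in Cre-positive libraries and 305.3 to 611.0 in Cre-negative libraries, a log2 difference of -4.05 ± 0.50 (SE) with a limma adjusted p of 0.000288. Among cell types that a sort could carry along, the summed macrophage and dendritic cell markers were 7304 to 11500 normalized counts in Cre-positive and 5238 to 6914 in Cre-negative libraries, with 1 of 7 genes called higher and 1 lower and a median log2 difference of -0.65. Most of that sum is Lyz2, and the other 6 genes summed to 353.9 to 746.0 in Cre-positive and 746.7 to 1101.2 in Cre-negative libraries. The call of Lyz2, higher, was lost without any 1 of Cre-positive 80 and Cre-negative 46, 48 and 77. Its limma adjusted p was then between 0.0650 and 0.128. Adgre1, the gene called lower, had 28.0 to 56.4 normalized counts in Cre-positive and 137.9 to 402.2 in Cre-negative libraries. Its log2 difference was -2.91 with a limma adjusted p of 0.000819, and the call held with any 1 library left out. The summed cortical epithelial markers were 5897 to 10618 in Cre-positive and 12097 to 15220 in Cre-negative libraries, with none of 5 called higher and 1 lower. The summed thymocyte, B cell, erythroid, fibroblast, endothelial, tuft cell and gut markers overlapped between groups, and no defining marker of these lists was at 0 in every library. Within them 2 of 5 fibroblast genes, Col1a1 and Col1a2, and 2 of 10 gut genes, Cdh17 and Muc2, were called lower, and none of any of these lists was called higher. Dcn, most of the fibroblast sum, had 989.3 to 1170.7 in Cre-positive and 562.4 to 890.4 in Cre-negative libraries. The calls of Col1a1 and Cdh17 were lost without 1 of several libraries, at limma adjusted p-values between 0.0578 and 0.0906, for both Cre-positive 45 and Cre-negative 46 and 48, and for Col1a1 also Cre-positive 80 and Cre-negative 77. Of 8 tested kidney tubule markers 2 were called higher, Fxyd2 and Umod, and 3 lower, with a median log2 difference of -1.79. Of the lower ones, Slc12a1 and Kap averaged under 5 normalized counts in Cre-positive libraries and passed the filter through the Cre-negative ones. What part any of these has in the level of Gpx6 was not tested.

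Genes of the wider peroxide and glutathione system were examined as 8 lists of 132 genes in all, of which 130 were tested. Of these, 10 were called higher and 15 lower, 19.2% of the genes tested against 13.8% over all genes. By direction this was 7.69% higher and 11.5% lower, against 4.66% and 9.11% over all genes, the shares to set beside each list below. The lower calls include Ggt1, Dpep1 and Gstm7, which passed the filter on low values through Cre-negative libraries. The median log2 difference of the lists was -0.13 against -0.10. Scaling by library totals gave 5 higher and 27 lower, against 583 higher and 2638 lower over all genes, where the size factors gave 1066 higher and 2084 lower.

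In glutathione synthesis, recycling and breakdown, 2 of 19 tested genes were called higher and 3 lower, with a median of 0.19. Gclc, the catalytic subunit of the rate-limiting enzyme of glutathione synthesis, had 1666.1 to 1757.6 normalized counts in Cre-positive libraries and 690.0 to 1140.5 in Cre-negative libraries, and rose by 0.83 ± 0.19 (SE) on the log2 scale with a limma adjusted p of 0.0133. With library-total scaling its adjusted p was 0.0540. Gsr, glutathione reductase, which returns the substrate of the peroxidases, had 383.5 to 538.7 in Cre-positive libraries and 615.1 to 803.8 in Cre-negative libraries, with groups apart and a limma adjusted p of 0.0688. Ggt1, which starts the breakdown of extracellular glutathione, had 3.0 to 3.1 in Cre-positive libraries and 20.7 to 61.3 in Cre-negative libraries. It was called lower with a limma adjusted p of 0.0108, which was 0.0681 by limma-voom. Ggt1 and Dpep1 averaged under 5 normalized counts in Cre-positive libraries and passed the filter through the Cre-negative ones. The calls of the glutaredoxin genes Glrx3 (higher) and Glrx (lower) and of the dipeptidase gene Dpep1 (lower) were each lost without 1 of several libraries, at limma adjusted p-values between 0.0506 and 0.104. Those libraries were Cre-positive 45 and 80 and Cre-negative 48 for all of them, Cre-negative 46 for Glrx3 and Glrx, and Cre-negative 75 for Glrx and Dpep1.

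Of 27 tested glutathione transferases, which conjugate glutathione to other compounds, 2 were called higher and 6 lower, with a median of -0.27. The lower calls were Gstm1, Gstm3, Gstm5, Gstm6 and Gstm7 of the mu class and Gstt1. The other mu class genes of the list were not called: Gstm2 had 166.2 to 385.1 normalized counts in Cre-positive libraries and 72.1 to 195.4 in Cre-negative libraries, a log2 difference of 0.99 with a 95% interval of 0.15 to 1.83, and Gstm4 had -0.63. Gstm1 had 253.9 to 483.7 normalized counts in Cre-positive libraries and 853.0 to 1147.7 in Cre-negative libraries, and fell by 1.59 ± 0.23 (SE) on the log2 scale with a limma adjusted p of 0.000958. Gstm5 fell by 2.15 ± 0.28 (SE) with a limma adjusted p of 0.000443. Gstm7 had 0.0 to 6.0 in Cre-positive libraries and 35.2 to 70.9 in Cre-negative libraries, through which it passed the filter on low values. The Gstm genes are near-identical in stretches, so the split of reads among them is uncertain. Mgst1, a membrane-bound transferase with peroxidase activity, rose by 0.76 ± 0.16 (SE) with a limma adjusted p of 0.00837. The call of Gstm3, lower, was lost without Cre-negative 46 at a limma adjusted p of 0.0508. That of Gstp3, higher, was lost without any 1 of Cre-positive 45 and 80 and Cre-negative 46 and 77, at limma adjusted p-values between 0.05009 and 0.104. The calls of Gstm6 and Gstt1 were lost without any 1 of Cre-positive 76 and Cre-negative 48 and 75, and that of Gstm6 also without Cre-positive 45, at limma adjusted p-values between 0.0566 and 0.0930.

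**Figure D5:**
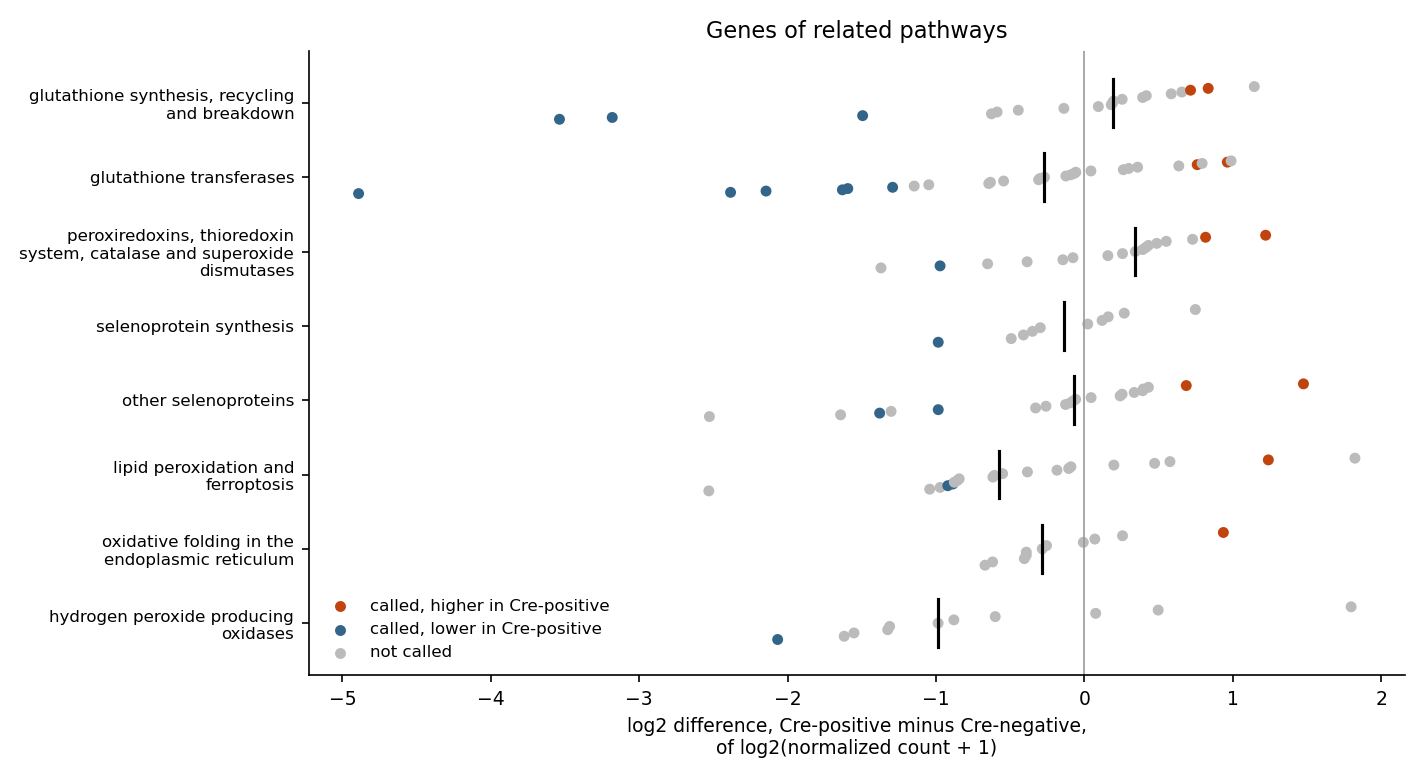
Log2 differences, Cre-positive minus Cre-negative, of the tested genes of 8 related lists, with 1 point per gene coloured by its limma call and a black bar at the median of each list. Medians run between -0.99 for the oxidases and 0.34 for the peroxiredoxin list, and called genes lie on both sides of 0 in 5 of the 8 lists.

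Among the other peroxide-removing enzymes (peroxiredoxins, the thioredoxin system, catalase and superoxide dismutases), 2 of 17 were called higher and 1 lower, with a median of 0.34. Prdx6, a peroxiredoxin that also uses glutathione, had 1323.9 to 2326.3 normalized counts in Cre-positive libraries and 528.8 to 1032.4 in Cre-negative libraries, and rose by 1.22 ± 0.26 (SE) on the log2 scale with a limma adjusted p of 0.00768. Prdx2 rose by 0.82 ± 0.19 (SE) with a limma adjusted p of 0.0122. Catalase, Cat, which splits hydrogen peroxide in peroxisomes, had 253.3 to 404.4 in Cre-positive libraries and 439.6 to 816.6 in Cre-negative libraries and was called lower. That call was lost without any 1 of Cre-positive 76 and 80 and Cre-negative 46 and 48, at limma adjusted p-values between 0.0689 and 0.0895.

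The selenium pathway was examined because 4 members need it. Of 10 tested genes of selenoprotein synthesis none was called higher and 1 lower, and of 20 other selenoproteins 2 were called higher and 2 lower, with medians of -0.14 and -0.07. Sephs2, which makes the selenium donor and is itself a selenoprotein, stands in both lists. It had 682.0 to 783.1 normalized counts in Cre-positive libraries and 957.6 to 2556.1 in Cre-negative libraries, and its lower call was lost without any 1 of the 3 Cre-positive libraries or Cre-negative 46 or 48, at limma adjusted p-values between 0.0715 and 0.105. Selenof, of the endoplasmic reticulum, had 5732.1 to 5878.8 in Cre-positive libraries and 2864.4 to 4139.4 in Cre-negative libraries, a rise of 0.69 ± 0.16 (SE) on the log2 scale with a limma adjusted p of 0.0120. Selenom, of the same compartment, fell by 1.38 ± 0.31 (SE) with a limma adjusted p of 0.0105. The call of Selenon, higher, was lost without any 1 of 6 libraries (all but Cre-negative 46), at limma adjusted p-values between 0.0634 and 0.150.

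In the list of lipid peroxidation and ferroptosis, the process that Gpx4 limits, 1 of 20 genes was called higher and 2 lower, with a median of -0.58. Fth1, the ferritin heavy chain that stores iron, had 29248 to 41518 normalized counts in Cre-positive libraries and 10135 to 17878 in Cre-negative libraries, and rose by 1.24 ± 0.20 (SE) on the log2 scale with a limma adjusted p of 0.00183. Alox15, a lipoxygenase that makes the lipid hydroperoxides Gpx4 reduces, had 554.9 to 749.1 in Cre-positive libraries and 1001.7 to 1507.0 in Cre-negative libraries, and fell by 0.89 ± 0.19 (SE) with a limma adjusted p of 0.00985. The call of the quinone reductase gene Nqo1, lower, was lost without any 1 of Cre-positive 45 and 76 and Cre-negative 75 and 77, at limma adjusted p-values between 0.0785 and 0.105.

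Beside Gpx7 and Gpx8, 1 of 11 tested genes of oxidative folding in the endoplasmic reticulum was called, with a median of -0.28. It was Vkorc1, which recycles vitamin K, higher in Cre-positive libraries, a call lost without any 1 of 6 libraries (all but Cre-negative 48) at limma adjusted p-values between 0.0563 and 0.0971. Of 11 tested genes of oxidases that produce hydrogen peroxide none was called higher and 1 lower, with a median of -0.99. Cybb, the catalytic subunit of the phagocyte oxidase, had 151.6 to 274.8 normalized counts in Cre-positive libraries and 478.7 to 1014.5 in Cre-negative libraries, and fell by 2.07 ± 0.30 (SE) on the log2 scale with a limma adjusted p of 0.000856.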

How the data were processed

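RNA of 7 libraries of sorted mTECs was compared between Cre genotypes. The submitters' processing notes name STAR 2.7.9a, DESeq2 and the genome GRCm39. The counting tool and its handling of strand are not stated in the sources used here. Gene coordinates in the deposited table equal those of GENCODE M21 (GRCm38) for 49909 of 55450 shared genes (90.0%), so positions are given on GRCm38. Per the file headers, the authors deposited normalized counts (a signal, gene counts divided by a size factor), variance-stabilized log2 values, a fold change as a linear ratio and as log2 (Cre-negative over Cre-positive), p-values and the GC percent of each gene. The deposited ratio, GC percent and stabilized log2 values were not used for any result.

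Read numbers were rebuilt from the normalized counts: all values in every library came out whole within 0.0501 normalized counts. The 22878 genes averaging 5 or more normalized counts were tested with limma on log2(normalized count + 1), with an intensity trend and genotype as the only term, and 32658 were left out. The plan named edgeR for raw counts with this fallback for normalized values, and the fallback was used. A gene is called where its Benjamini-Hochberg adjusted p over all tested genes is under 0.05. The tests were checked on simulated data. Adding 1 shrinks differences of genes near 0 reads.

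The family and all gene lists were chosen with earlier results of these data known. Named genes are the 8 members; of each pathway list, the called genes, up to 4 in each direction by smallest adjusted p; the 5 profiles nearest to Gpx6; and the neighbours of Gpx5 and Gpx6. Gsr, Gstm2, Gstm4, Gstm6, Gstt1 and the marker genes named were singled out after their values were seen. In all, 18 other settings were run, with other pseudocounts (0.5, 5), filters (none, a mean of 20), scalings (library totals, TMM) and tests (edgeR, DESeq2 and limma-voom on recovered reads), with terms for label number range and Y-linked level, and with each library left out. Versions: limma 3.58.1, edgeR 4.0.16 and DESeq2 1.42.0 under R 4.3.3; pandas 2.3.3 and matplotlib 3.10.9 under Python 3.11.15.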

Additional observations from a re-analysis of the deposited data

Results flagged for a closer look

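Of 83 sets of 4 Cre-negative values examined, 4 held a library far from the other 3 by Dixon's criterion, and chance gives about 1 in 20 such sets. The level of 4 Y-linked genes, the log2 of their summed normalized counts plus 1, was 11.94 in Cre-negative 48, the highest of its group. The other Cre-negative libraries lay between 0.85 and 1.0, where 1.0 is 1 normalized count, and all 3 Cre-positive libraries were at 0. The lowest Cre-negative value of A230065H16Rik, a profile near that of Gpx6, was 96.5 normalized counts in the same library. The highest Cre-negative value of Dpep1 was 84.7 normalized counts in Cre-negative 75, and the lowest of Lcn10, an epididymal lipocalin gene, was 72.9 in Cre-negative 46.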

How the results depend on the processing

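The direction of Gpx6 was given by its selection, so only its size is described over the 18 alternatives. Its log2 difference lay between 3.52 and 3.799 under the 11 settings that kept all libraries. It lay between 3.58 and 3.91 when 1 library was left out. No other member changed direction under any alternative. DESeq2 called 1 of the 7 other members, Gpx5 at -3.38, and leaving out 1 library called 0 or 1 of them. Gpx7 ranged over 0.69 to 1.08, called at 1.08 without Cre-negative 75, and Gpx8 over 0.47 to 1.54, called at 1.54 without Cre-positive 80. Gpx5 gave no value in edgeR, limma-voom or with the filter at a mean of 20.

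Called genes numbered 3150, and 1909 with a term for the Y-linked level, or 1990 to 2696 without 1 library. Higher calls numbered 1066, 583 with library-total scaling, 558 with the Y-linked term and 600 to 1008 without 1 library. Lower calls numbered 2084, 1352 by limma-voom, 1351 with the Y-linked term and 1315 to 1759 without 1 library. Of the 8 pathway lists 10 genes were called higher, 5 with library-total scaling and 6 to 11 without 1 library, and 15 lower, 27 with library-total scaling, 24 by DESeq2, 8 with the Y-linked term and 10 to 14 without 1 library. The cause of these shifts was not tested.

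With library-total scaling the log2 difference turned to -0.048 for Trim27 and -0.13 for Zkscan3. Without 1 library, Zkscan3 ranged over -0.095 to 0.20 (below 0 without Cre-positive 80), and Zscan12 over -0.87 to 0.57 (above 0 without Cre-negative 46 or 77, or Cre-positive 45). No paired analysis was possible because the groups share no replicate number. The differences of Gpx1, Gpx2, Gpx3, Gpx4, Gpx7 and Gpx8 did not pass the threshold with 3 against 4 libraries. That does not show that these genes did not differ. Gpx5 rests on at most 55 reads in a library.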
